A study of Mus musculus with 5 samples.

Results

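Potassium channel genes are described here by the REST peaks called in or near them in the embryonic mouse pancreas. No expression data were used, so whether REST regulates these genes was not tested. All protein-coding genes of the mm9 annotation (GENCODE vM1) whose symbol starts with Kcn were taken, which gave 94 of 22238 protein-coding gene symbols. The symbol covers the pore-forming subunits of potassium channels and many of their auxiliary subunits. A gene was given a site when a called peak touched its body or lay within 50 kb of its start, so the rule used no measured value, although the family was picked with earlier results of these data known.

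REST occupancy was mapped by ChIP-seq (antibody 12C11, a mouse monoclonal) in whole dissected pancreas of wild-type, untreated embryos on a mixed strain background with C57BL/6. At E13.5 there were 2 libraries (A and B), and every library was made from 4 to 6 pooled pancreases. At E18.5 there were 3 libraries (A, B and C) made from pools of 3 to 4 pancreases. The libraries hold all cell types of the organ, and the tissue label could not be checked from lists of peaks.

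After repeated entries were merged, the 5 lists held between 226 and 1400 peaks, with 1400 in E13.5 A, 1333 in E13.5 B and 541, 417 and 226 in the E18.5 lists. Joined by overlap of at least 1 bp they made 1860 sites, of which 1186 were called in both E13.5 libraries and 252 in at least 2 E18.5 libraries. How deeply each library was sequenced is unknown, so a gene without a peak is one where none was called. Each peak carries a whole-number score from the authors, and no source used here gives its unit. Scores were turned into percentile ranks within a library (100 for the highest), and the E13.5 rank of a site is the mean over both E13.5 libraries.

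Potassium channels let potassium leave or enter a cell and so set its resting potential and end its electrical pulses. In the pancreas they are best known from beta cells, where closing of ATP-sensitive channels starts insulin release and voltage-gated and calcium-activated channels end each pulse. REST is a zinc-finger repressor that binds the RE1 element and keeps many neuronal genes, ion channels among them, silent outside neurons. The RE1 consensus used here joins a left element, TTCAGCACC, to a right element, GGACAGCGC followed by C, with 2 free bases between them.

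The sequences that carry the Kcn sites are shown first. The region with the highest E13.5 rank at any Kcn gene lay upstream of Kcnk9, at chr15:72399077-72399244 of mm9, and is printed on the minus strand, the strand of the gene. Capitals mark 4 separate matches to the RE1 with at most 5 mismatches over its 19 fixed bases.
Kcnk9: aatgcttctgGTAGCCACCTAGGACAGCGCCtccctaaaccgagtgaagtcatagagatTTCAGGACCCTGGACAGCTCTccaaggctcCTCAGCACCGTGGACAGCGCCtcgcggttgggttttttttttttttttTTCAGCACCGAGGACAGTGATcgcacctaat

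Single RE1 matches are shown for 8 other sites with a match that were also called in an E18.5 library, and for Kcnab2, which with Kcnk9 had the fewest mismatches (1) of the Kcn sites. Capitals mark the fixed bases that fit the consensus, and lower case marks mismatches and the 2 free bases.
Kcnab2 (chr4:151798648-151798668, minus strand): TTCAGCACCcaGGACAGCtCC
Kcnk12 (chr17:88197924-88197944, plus strand): gTCAGCACCgcGGACAGCGCa
Kcnh1 (chr1:194281600-194281620, minus strand): gTCAGCACCctGGACAGCtCC
Kcnh2 (chr5:23863427-23863447, minus strand): TTCAGCACCtcGGACAGaGgC
Kcnh4 (chr11:100620321-100620341, minus strand): TTCAGCACCctGGACAGCcgC
Kcnip1 (chr11:33580276-33580296, plus strand): TTCAGtACCacGGACAGCaCC
Kcnmb2 (chr3:31840583-31840603, plus strand): TTCAGgACgctGGACAGCGCC
Kcnn4 (chr7:25144459-25144479, plus strand): gTCAGCACCaaGGACAGaGCC
Kcnk15 (chr2:163715341-163715361, minus strand): gctAGCACCatGGACAGttCC

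Of the 8 Kcn sites in which no RE1 match was found, 4 held the elements in another order. The right element was reversed and came first, 1 free base followed, and then came the left element (divergent elements). Of these, 3 are shown, together with the Kcnh6 site, which has the usual order with 7 free bases between the elements. Lower case marks free bases and mismatches.
Kcnk3 (chr5:30890479-30890498, minus strand): GGaGCTGTCCcTTCAGCACC
Kcnc1 (chr7:53652203-53652222, plus strand): GGaGCTGTCCcTTCAGCACC
Kcns2 (chr15:34767196-34767215, plus strand): GGaGCTGTCCgTTCAGCACC
Kcnh6 (chr11:105869276-105869301, plus strand): TTCAGCACCacgacgcGGACAGCtCC

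Of the 94 Kcn genes, 25 had a site called in both E13.5 libraries, or 26.6% (exact 95% binomial interval 18 to 36.7). Under the same rule 6.93% of all protein-coding genes had one. At E18.5, 7 Kcn genes had a site called in at least 2 libraries, or 7.45% (3.05 to 14.7), against 2.21% of all genes. Among these 7 genes were Kcnk9, Kcnk3, Kcnk12, Kcnh2, Kcns2 and Kcnmb2, and all 7 were among the 25 of E13.5. A peak in at least 1 of the 5 libraries was found for 30 Kcn genes, against 9.84% of all genes, and 64 Kcn genes had none. The intervals cover counting error over genes only.

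Kcn genes were longer than most, with a median length of 28.1 kb against 15.5 kb, and a long gene body can hold more sites. Among genes shorter than 10 kb, 2 of 26 Kcn genes had an E13.5 site (7.69%), against 6.5% of all such genes. Between 10 and 30 kb it was 6 of 22 (27.3% against 6.49%), and between 30 and 100 kb 9 of 23 (39.1% against 5.74%). From 100 kb upwards it was 8 of 23 (34.8% against 12.0%). The Kcn share was thus near that of all genes in the shortest class and above it in the other classes.

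By role, the voltage-gated pore subunits, which open when the membrane is depolarised, had E13.5 sites at 13 of 40 genes (32.5%, interval 18.6 to 49.1). The tandem-pore (Kcnk) genes, which encode leak channels that hold the resting potential, had them at 4 of 14 (28.6%, 8.39 to 58.1). Of the pore subunits opened by calcium or sodium and their relative Kcnu1, 4 of 8 had one (50%, 15.7 to 84.3). Auxiliary subunits had sites at 3 of 17 (17.6%, 3.8 to 43.4). The inward rectifiers (Kcnj), which pass potassium more easily into the cell than out of it, had 1 of 15 (6.67%, 0.169 to 31.9), close to the share of all genes. The intervals of these groups overlap. At E18.5 the counts were 3 of 40 voltage-gated, 3 of 14 tandem-pore, 1 of 17 auxiliary and none of the 15 inward rectifier and 8 calcium- or sodium-activated genes.

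**Figure D1:**
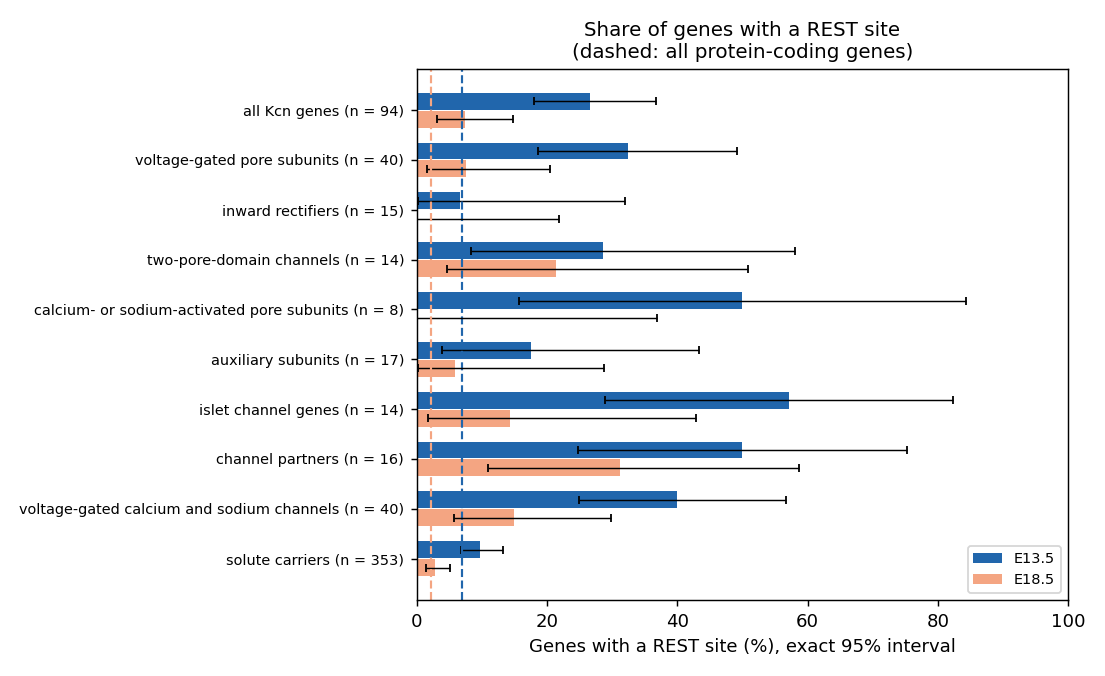
The bars give the percent of genes in each list with a REST site in both E13.5 libraries (blue) or in at least 2 E18.5 libraries (orange), with exact 95% intervals as thin lines and the share of all protein-coding genes as dashed lines (6.93% and 2.21%). Voltage-gated, tandem-pore (drawn as two-pore-domain) and calcium- or sodium-activated genes lie right of the blue line, and the inward rectifiers lie at it.

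Of the other transporter and channel families, the voltage-gated calcium and sodium channel list was set by symbol (Cacna, Cacnb, Cacng and Scn). Not every member need encode such a channel. The list had E13.5 sites at 16 of 40 genes (40.0%, 24.9 to 56.7). Solute carriers, the Slc symbols, had them at 34 of 353 (9.63%, 6.76 to 13.2). The Kcn interval lies above that of the solute carriers and overlaps that of the calcium and sodium channels. Median gene length was 93.1 kb in the calcium and sodium channel list and 28.6 kb in the solute carrier list. It was 28.1 kb for Kcn genes, and the shares were not adjusted for length. At E18.5 the counts were 6 of 40 and 10 of 353.

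The 25 genes of E13.5 held 31 sites. A single site was found at 21 genes, 2 sites each at 2 genes, Kcnip1 among them, and 3 sites each at Kcnh1 and Kcnj6. In the gene body lay 19 sites, and 12 lay outside it. Centres of 7 sites were within 1 kb of the start of the Kcn gene, those of 12 within 5 kb, and those of 8, all inside gene bodies, more than 50 kb away. For 26 sites the nearest annotated start was one of the Kcn gene. For the other 5 it was a start of another gene, so the target of those sites is less certain: Gripap1 for Kcnd1, D130052B06Rik for the stronger Kcnip1 site, Rims4 for Kcnk15, Slc5a5 for Kcnn1 and Lypd5 for Kcnn4. The furthest site outside a body that counted had its edge 35.7 kb from the start of Kcnk15, and the nearest that did not was 59.8 kb from the start of Kcnj6.

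**Figure D2:**
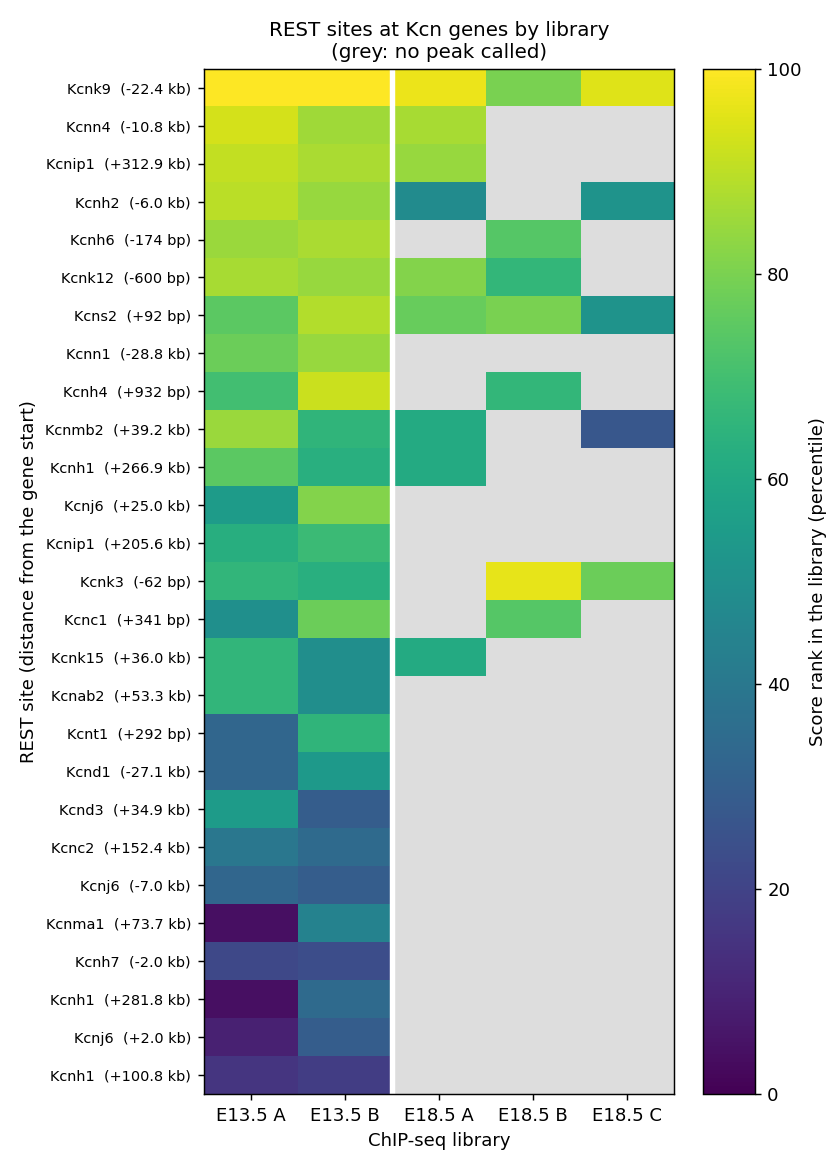
Each line is 1 of 27 Kcn sites called in both E13.5 libraries, named by gene and distance from the gene start, in order of E13.5 rank. The colour gives the score rank within each of the 5 libraries (percentile, 100 highest), and grey means that no peak was called. Colour at E18.5 is confined to the upper 16 of the 27 lines, and the Kcnk9 and Kcns2 lines have no grey.

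Leak channels had the strongest Kcn site. Kcnk9 encodes an acid-sensitive leak channel, and its site (chr15:72398824-72399480) lay 22.4 kb upstream in intergenic sequence. Its score was 70 in E13.5 A, 119 in E13.5 B, 26 in E18.5 A, 9 in E18.5 B and 30 in E18.5 C. These are ranks of 99.9, 99.9, 97.2, 80.0 and 95.1, so it stood near the top of 4 lists and lower in E18.5 B. It had an E13.5 rank of 99.9 and was 1 of 113 sites of the genome called in all 5 libraries.

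Kcnk3, a close relative of Kcnk9 and a leak channel of the same acid-sensitive kind, had a site (chr5:30890192-30890770) centred 62 bp upstream of its start. Its scores of 18 and 21 in E13.5 A and B gave middling ranks of 66.0 and 63.1. No peak was called in E18.5 A, while scores of 23 and 17 in E18.5 B and C gave ranks of 96.3 and 77.7. Those E18.5 lists are much shorter than the E13.5 lists, so these ranks do not compare the stages.

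Kcnk12 encodes a tandem-pore subunit that is electrically silent by itself. Its site lay 600 bp upstream of the start (chr17:88197670-88198198), with E13.5 scores of 27 and 31, then 10 in E18.5 A and 7 in E18.5 B, and no peak in E18.5 C. The site given to Kcnk15 lay in an intron of Rims4, a synaptic gene, and had E13.5 scores of 18 and 17 and scored 7 in E18.5 A.

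Among voltage-gated subunits, the Kcnh genes, relatives of the fly gene ether-a-go-go, had sites at 5 members. Kcnh2 encodes the channel of the rapid delayed rectifier current that repolarises the heart. Its site, 6.01 kb upstream (chr5:23863161-23863695), had E13.5 scores of 29 and 31 and E18.5 scores of 6 (A) and 11 (C). Kcnh6 belongs to the same branch, and its site (chr11:105868963-105869564) was centred 174 bp upstream of the start, with E13.5 scores of 26 and 33 and a score of 8 in E18.5 B. Kcnh7, the remaining gene of this branch, had a weak site 1.97 kb upstream with scores of 9 and 12 and no peak at E18.5. Kcnh4 had a site 932 bp inside the gene with E13.5 scores of 19 and 38 and a score of 7 in E18.5 B. All 3 sites of Kcnh1 were intronic, 101 to 282 kb from the start, with E13.5 ranks of 16.7, 68.9 and 19.3, and the site of rank 68.9 was called again, in E18.5 A with a score of 7. E13.5 ranks were 87.2 for the Kcnh2 site, 86.2 for that of Kcnh6 and 22.7 for that of Kcnh7. The Kcnh2 and Kcnh6 sites were thus in the highest quintile of rank over all E13.5 sites, and the Kcnh7 site in the lowest.

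The Kcnc genes encode delayed rectifiers that close fast and allow rapid firing. The Kcnc1 site was centred in untranslated exon sequence 341 bp from the start (chr7:53651948-53652467) and had E13.5 scores of 14 and 27 and a score of 8 in E18.5 B. The Kcnc2 site lay deep in an intron, 152 kb from the start, with scores of 12 and 14 and no E18.5 peak. Of these, the site near the start was thus the one called again.

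Kcns2 encodes a silent subunit that assembles with delayed rectifier channels, and its site (chr15:34766912-34767492) was centred 92 bp inside the gene in untranslated sequence. Its E13.5 scores were 21 and 34, and E18.5 A, B and C scored 9, 9 and 11. These are E13.5 ranks of 74.8 and 88.5 and E18.5 ranks of 76.7, 80.0 and 51.3. With Kcnk9 it was the other Kcn site called in all 5 libraries.

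Kcnd1 and Kcnd3 encode transient A-type channels, and their sites had E13.5 ranks of 43.4 and 42.1 and no E18.5 peak. The Kcnd1 site was in an intron of Gripap1.

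Of the channels opened by ions, Kcnn4 encodes the intermediate-conductance calcium-activated channel. Its site, 10.8 kb upstream and slightly nearer to the start of Lypd5 (chr7:25144210-25144744), had E13.5 scores of 33 and 32 and a score of 12 in E18.5 A. The site given to the small-conductance channel Kcnn1 scored 22 and 31 at E13.5, was not called at E18.5, and lay in an intron of Slc5a5, the sodium and iodide symporter. Kcnma1, the large-conductance channel, had an intronic site of low rank (24.3), 73.7 kb from the start, with scores of 6 and 16. Kcnt1, a sodium-activated channel, had a site 292 bp inside the gene with scores of 11 and 22. Of these 4 genes, Kcnn4 was the one with an E18.5 peak at its E13.5 site.

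The inward rectifier Kcnj6, a channel opened by G proteins, had 3 sites within the limit: 7.01 kb upstream, 2042 bp inside and 25013 bp inside the gene. Their E13.5 ranks were 31.3, 19.3 and 68.1, and none of them was called at E18.5. Scores were 11 and 13, 7 and 13, and 15 and 29 in E13.5 A and B.

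Of the auxiliary subunits, Kcnip1 encodes a calcium-binding subunit of Kcnd channels. Its stronger site, in an intron 313 kb from the annotated start (chr11:33580013-33580524), had E13.5 scores of 30 and 33 and a score of 11 in E18.5 A, and a second site in the gene scored 17 and 23. Kcnmb2 encodes a beta subunit that makes the Kcnma1 channel inactivate, and its site 39.2 kb into the gene (chr3:31840330-31840879) had E13.5 scores of 26 and 22 and E18.5 scores of 7 (A) and 9 (C). Kcnab2, a cytoplasmic subunit of Kcna channels, had a site 53.3 kb from the start with scores of 18 and 17 and no E18.5 peak, although its RE1 had 1 mismatch. The Kcnip1 and Kcnmb2 sites each had 2 mismatches. Their E13.5 ranks (89.1 and 65.3 for Kcnip1, 75.3 for Kcnmb2) were above that of Kcnab2 (57.7). Fewer mismatches thus did not go with a higher rank at these few sites.

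**Figure D3:**
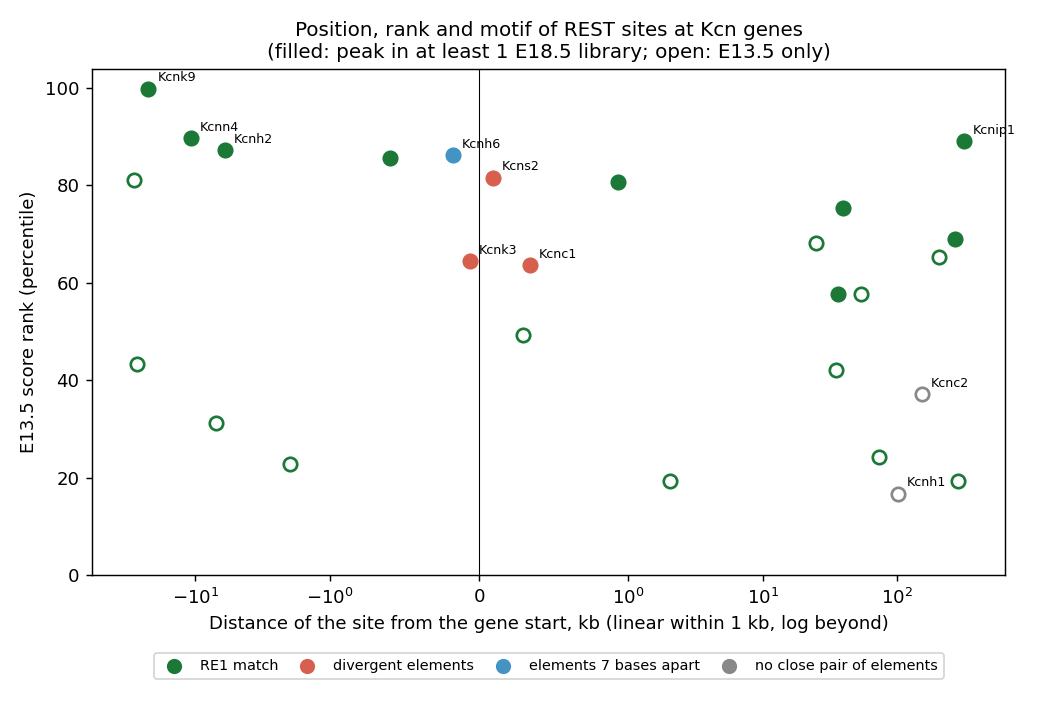
Each point is 1 of 27 Kcn sites of E13.5, with its distance from the gene start in kb on the horizontal axis (linear within 1 kb, logarithmic beyond) and its E13.5 score rank on the vertical axis. Filled points were called in at least 1 E18.5 library. The 3 sites with divergent elements drawn (red) lie within 1 kb of a start at ranks from 63.7 to 81.6, and the filled points lie above a rank of 57.

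A list of 14 Kcn genes known from islet cells had 8 members with an E13.5 site (57.1%, interval 28.9 to 82.3, against 6.93% of all genes), and the median length of the 14 was 61.9 kb. The list was chosen with earlier results of these data known, so its share is a description and may reflect the choice of members. The 8 included Kcnc2, Kcnh2, Kcnh6, Kcnip1, Kcnj6, Kcnk3 and Kcnma1. No peak in any library was called for Kcnj11, the pore of the beta-cell ATP-sensitive channel, nor for Kcnj5, Kcnk1, Kcnk16, Kcnn3 and Kcnq1. Abcc8, the sulfonylurea receptor that assembles with Kcnj11, had none either. Of 16 partners whose symbol does not start with Kcn, a list chosen in the same way, 8 had an E13.5 site (50%, interval 24.7 to 75.3, against 6.93%), with a median gene length of 35.9 kb over the 16. Hcn2, Hcn3 and Hcn4, which encode pacemaker cation channels, were among them, with E13.5 ranks of 54.6, 80.8 and 78.1. Dpp6, a subunit of Kcnd channels, had 5 E13.5 sites, all intronic. Sites were also given to Cntnap2, which clusters Kcna channels on axons, Amigo1, a partner of delayed rectifier channels, and Lrrc26, a partner of Kcnma1. The start nearest to the Lrrc26 site was that of Grin1, and the one nearest to the Amigo1 site that of Atxn7l2. No peak was called for Abcc9, Dpp10, Lgi1, Cntn2, Lrrc38, Lrrc52 or Lrrc55.

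Peaks in a single library alone were called for Kcna7, Kcna10, Kcnip2, Kcnip3 and Kcnq3, and for a second region of Kcnma1. Among the 64 Kcn genes with no peak in any library, 24 were voltage-gated, 14 inward rectifiers, 10 tandem-pore, 4 calcium- or sodium-activated and 12 auxiliary.

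The Kcn sites had a median E13.5 rank of 65.3 (lowest 16.7, highest 99.9), against a median of 54.2 and quartiles of 33.1 and 75.6 for the 1152 other E13.5 sites searched. The Kcn medians were 66.0 in E13.5 A and 65.4 in E13.5 B. They thus sat somewhat above the middle of the list. Among the 120 sites of highest rank 3 were Kcn sites, no more than the share that 31 make of the 1186 E13.5 sites. In introns lay 20 of 31 Kcn sites (64.5%, interval 45.4 to 80.8), against 38.5% (35.7 to 41.4) of the other sites. The choice by gene body favours introns, so this share is a description of where the sites lay. Between genes lay 29.0% against 50.8%, and none of the 31 was in a coding exon, against 3.73%.

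An RE1 match in the 500 bp around the site was found in 23 of 31 Kcn sites (74.2%, 55.4 to 88.1) and in 78.9% (76.4 to 81.2) of the other sites. In equal windows 10 kb downstream it was found in 0 of 31, which allows a share of up to 11.2%, and in 1.48% of the others. Matches with at most 2 mismatches were in 14 of 31 Kcn sites (45.2%, 27.3 to 64.0) and in 27.3% (24.8 to 30) of the other sites. The RE1 pointed the same way as the gene in 11 of 23 sites and the opposite way in 12, and its centre was a median of 12 bp from the centre of the site. The Kcnn4 site held 2 RE1 matches and the Kcnk9 site 4. At least 2 matches were also found in 7.29% of the other sites, 22 of which held 3 or more.

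Kcn sites with and without an RE1 match had median E13.5 ranks of 65.3 and 65.1. Of the 8 without a match, 6 lay within 5 kb of a start (75.0%, 34.9 to 96.8), against 8 of 23 with a match. Their sequence had a median GC content of 62.4%, against 51.2% in other sites without a match and 48.6% in Kcn sites with one. All 8 held the right element with at most 1 mismatch and 7 the left, against 66.3% and 64.2% of the 243 other sites without a match and 1.94% and 12.3% of the windows 10 kb downstream.

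The arrangement of these elements was examined after the sequences had been seen. Counts that include those same Kcn sites thus describe them and give no independent support. Divergent elements with 1 base between them, each element with at most 1 mismatch and both strands searched, were found in 4 of the 8 Kcn sites without a match, among them those of Kcnk3, Kcnc1 and Kcns2. They were found in 8 of the 243 other sites without a match (3.29%, interval 1.43 to 6.38) and in none of 1183 windows 10 kb downstream, which allows up to 0.311%. With or without an RE1 match, 16 E13.5 sites of the genome held such a pair, 4 of them Kcn sites. The genes nearest to the 12 others included Cacng3, Cplx2, Crmp1, Diablo, Fam86, Lhfpl5, Nav1, Nova1, Nptx1, Tmem145 and Zdhhc22. Around the starts of all protein-coding gene records, 3 of 22380 windows of 500 bp (0.0134%) held the pair: those of Kcnk3, Kcns2 and Hmgn2. The Kcnk3 and Kcns2 pairs were already known from their E13.5 sites, so finding them here was fixed in advance. The Hmgn2 window did not overlap an E13.5 site.

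The printed pair was the same base for base in Kcnk3 and Kcnc1, although the genes belong to different families and chromosomes, and the Kcns2 pair differed from them in the free base. A peak was called in at least 1 E18.5 library at 4 of the 4 Kcn sites with the pair and at 4 of the 12 other sites with it. Over all other E13.5 sites the share was 40.0%. The 4 Kcn sites had E13.5 ranks from 63.7 to 81.6. Of the 12 others, only those at Cacng3 (82.9) and Cplx2 (81.8) ranked above 57.0, and the lowest had a rank of 11.1. Calls at E18.5 rose with E13.5 rank, so these counts do not compare sites of like rank. Some of the 12, that at Cacng3 among them, also held an RE1 match. The usual order with 7 to 9 bases between the elements, as in Kcnh6, was found in 22.6% of the other sites without a match and in 0.169% of the downstream windows. No such close pair was found in the Kcnc2 site or in the Kcnh1 site of rank 16.7.

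**Figure D4:**
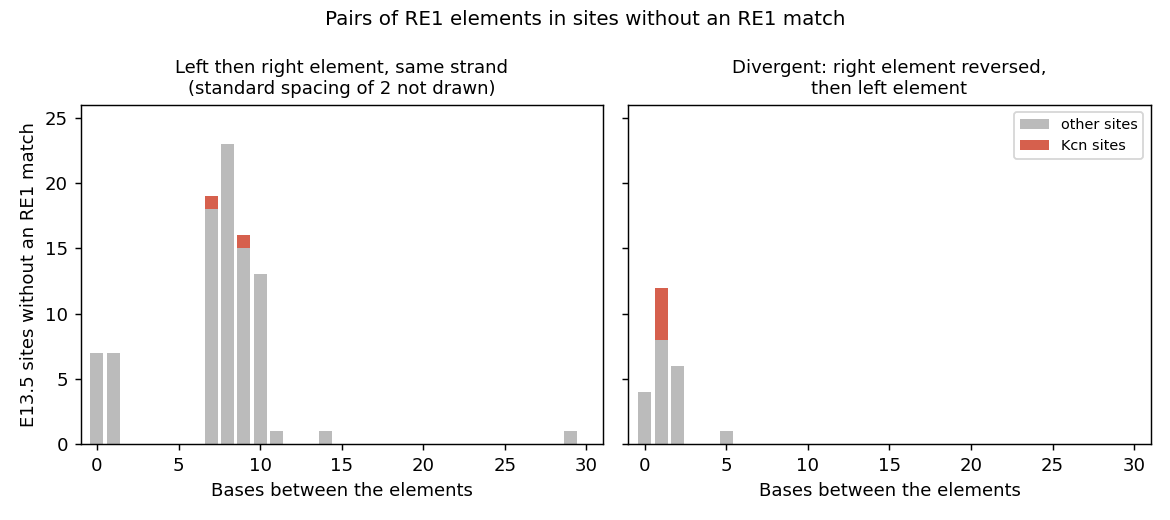
Bars count E13.5 sites without an RE1 match that hold both elements, by the number of bases between them (0 to 30), for the usual order on the left and the divergent order on the right. Other sites are grey and Kcn sites red, and 4 Kcn sites stand with 8 others at a divergent spacing of 1.

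Of the 31 Kcn sites of E13.5, 16 (51.6%, 33.1 to 69.8) were called again in 1 or more E18.5 libraries, against 40.0% (37.2 to 42.9) of the other sites. Peaks were called again at 10 of the 31 sites in E18.5 A, 9 in E18.5 B and 6 in E18.5 C. In all 3 E18.5 libraries it was 2 of 31 (6.45%), against 9.38%. The sites called again were mostly those of high E13.5 rank. Over quintiles of rank from lowest to highest, 0 of 6, 0 of 4, 1 of 3, 6 of 8 and 9 of 10 Kcn sites had an E18.5 peak, and the shares of the other sites were 9.05%, 14.2%, 34.3%, 53.9% and 90.2%. In the highest quintile the 1 Kcn site not called again was that given to Kcnn1.

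**Figure D5:**
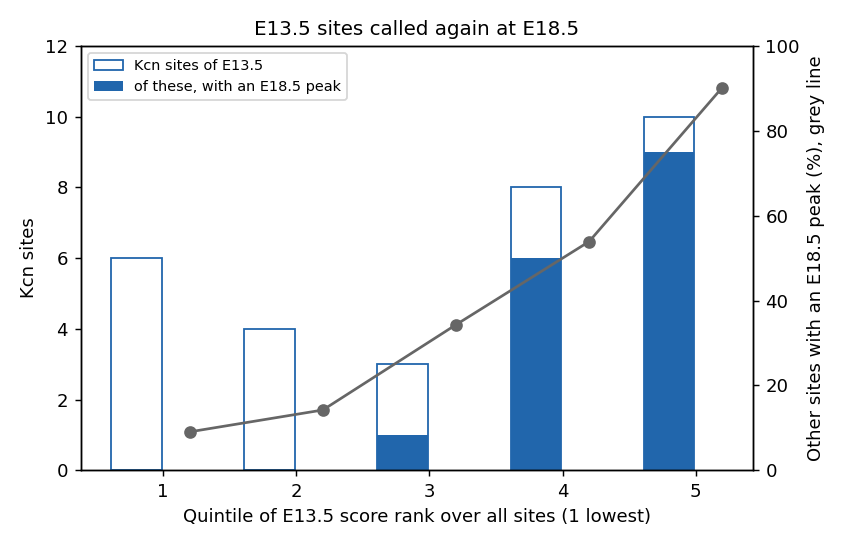
Outlined bars count the Kcn sites in each quintile of E13.5 score rank, filled bars those called again in any E18.5 library (left axis), and the grey line gives the percent of other E13.5 sites with such a peak (right axis). Both rise with rank, from 0 of 6 to 9 of 10 Kcn sites and from 9.05% to 90.2% of the others.

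To ask whether the place of Kcn genes among genes with REST peaks differed between the stages, each library was taken as 1 value. Peaks at Kcn genes made up 2.29% and 2.55% of all peaks in E13.5 A and B and 2.03%, 2.40% and 2.65% in E18.5 A, B and C. The ranges overlap, with means of 2.42% ± 0.187 (SD, n = 2) and 2.36% ± 0.312 (SD, n = 3), and an exact two-sided permutation test over libraries gave p = 1.0. The difference of 0.0561 percentage points changed sign without E13.5 B or without E18.5 A (-0.0764 and -0.108).

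The number of Kcn genes with a peak was 26 and 28 in the E13.5 libraries and 11, 10 and 6 in those of E18.5. The groups did not overlap, and the exact permutation p of 0.2 is the smallest that 2 against 3 libraries allow. All genes with a peak numbered 1756 and 1690 against 733, 682 and 439, and Kcn genes made up 1.57% ± 0.125 (SD, n = 2) of them in the E13.5 libraries and 1.44% ± 0.0696 (SD, n = 3) in the E18.5 libraries, with an exact permutation p of 0.4. With a single E18.5 library left out and both remaining ones required, 3 Kcn genes kept an E18.5 site without E18.5 A (Kcnk9, Kcnk3 and Kcns2), 4 without E18.5 B and 4 without E18.5 C.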

How the data were processed

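ChIP-seq reads were single-end. The authors aligned them with Bowtie2 2.2.5, filtered them on mapping quality and used MACS2 2.1.0 with input DNA to call peaks. The submitters' processing notes also name SAMtools and both NCBI36 and mm9. Peak ends lay within the mm9 chromosome lengths on all 20 sequences compared, and coordinates are mm9, counted from 1. The deposited lists hold 1 set of peaks per library with a position and a score, and no source used here gives the unit of the score.

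Overlapping entries within a library (7, 2, 4, 2 and 3) were merged with the highest score kept, and peaks overlapping by at least 1 bp were joined into sites. Sites on unplaced sequence were not searched for motifs, which left 1183 of 1186 E13.5 sites. Positions were annotated with GENCODE vM1, whose 94 Kcn symbols came from 96 gene records. The RE1 was searched on both strands of 500-bp windows with at most 5 mismatches, and single elements with at most 1. Intervals are exact Clopper-Pearson 95% intervals over genes or sites, which are not replicates, and cover counting error only. An exact permutation test over libraries compared the stages. Python 3.11.15, pandas 2.3.3, scipy 1.17.1 and pysam 0.24.0 were used. The code was tested on simulated data.

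Every Kcn gene with a site in both E13.5 libraries or in at least 2 E18.5 libraries was named, except a few that are not reported here and are counted without their names, those with a peak in 1 library without values, and islet channel genes without a peak. Full values were set for genes called in all 5 libraries and the 6 next in E13.5 rank, and others were added after their values were seen. The members, lists and rules were chosen with earlier results of these data known. The alternatives were other distances from the gene, the nearest start, equal numbers of peaks, a stricter overlap, other motif limits and leaving out each library.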

Additional observations from a re-analysis of the deposited data

How the results depend on the processing

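The number of Kcn genes with an E13.5 site was 25, and it stayed within 1.5 times that under other distances (17 in the gene body, 27 within 100 kb), the nearest start (22) and without 1 E13.5 library (26 and 28). It was 8 when every library was held to its 226 top-scoring peaks (among them Kcnh2, Kcnh6, Kcnip1, Kcnk9, Kcnk12 and Kcnn4) and 4 when 50% of both peaks had to overlap, which the unequal peak lengths of the E13.5 lists (medians of 161 and 483 bp) seldom allow. All these alternatives were computed for Kcn genes and sites only. Whether the Kcn share stayed above that of all genes under them was not tested. With the 226 top-scoring peaks and with 50% overlap, 100% of 8 and 75.0% of 4 Kcn sites were called again at E18.5, and the median rank was 88.3 and 86.6. That median was 64.5 with the gene body alone or within 100 kb, 64.1 with the nearest start and between 64.2 and 66.0 without 1 E13.5 library, and each moved by more than the 0.438 between the libraries' medians (SD). Kcn genes with an E18.5 site numbered 4 with the gene body alone and 3 to 4 without 1 E18.5 library. The share with an RE1 match was 93.5% with up to 6 mismatches. Of the 8 Kcn sites without a match, 6 had a best match of 6 mismatches, those of Kcnk3, Kcnc1 and Kcns2 among them. That is 19.4% of the Kcn sites, against 8.07% of the other sites. The class of sites without a match thus depends on the limit of 5. The share of downstream windows with 6 mismatches was not counted. The stage difference in the share of peaks reversed to -0.115 percentage points with the nearest start, and ran from -0.108 to 0.202 without 1 library. For the results not given above the cause was not tested. No paired analysis was possible because the letters name libraries from different embryos.

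Read depth is unknown, so fewer peaks and less binding cannot be told apart. The peaks come from whole pancreas, so the cell type behind a site is unknown. With 2 libraries against 3 the smallest p is 0.2.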

Other observations

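Between 50 and 100 kb from a Kcn start, 4 further E13.5 sites lay outside Kcn gene bodies. Both sites near Kcnj6 were nearest to its own start: that at 59.8 kb had an E13.5 rank of 22.7 and no E18.5 peak, and that at 96.0 kb had a rank of 96.7 and was called in all 3 E18.5 libraries. The others lay 73.3 kb from Kcna3 (rank 28.4) and 87.8 kb from Kcnk5 (rank 43.2, nearest to 1810063B07Rik), with no E18.5 peak. In the calcium and sodium channel list, which was set by symbol, Cacng2 had the site of highest E13.5 rank (99.2), centred 92 bp inside the gene. That site was called in all 3 E18.5 libraries and had no RE1 match. A Cacng3 site of rank 82.9 held the divergent elements described for Kcnk3.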
